A study of Mus musculus with 7 samples.

Results

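The thiazide-sensitive sodium chloride cotransporter, its WNK kinase pathway and other genes of the distal convoluted tubule (DCT) were examined in mouse kidney RNA. They comprised 10 genes chosen by symbol: Slc12a3, Trpm6, Kcnj10, Pvalb, Wnk1, Wnk4, Stk39, Oxsr1, Klhl3 and Cul3. The deposited table held 9 of them among 17537 listed genes, and Oxsr1, which encodes the kinase OSR1, was not analysed here. All 9 passed the filter on low values described below, and each would also have passed it without the group in which it was highest. They were followed in 7 libraries, 1 per mouse.

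All mice were C57BL/6, and the labels give male sex, whereas the methods of the study name mice of both sexes. The age of 8 to 10 weeks in the labels is that at the start of the experiment. Tissue was collected after the 22 weeks of the model, with controls matched for age. The 3 nondiabetic controls (C, replicates 2, 8 and 9) had no streptozotocin. The other 4 mice were made diabetic by streptozotocin, which destroys the insulin-producing beta cells of the pancreas, given on 5 days at a dose of 60 mg/kg. The 2 DM-22 mice (replicates 1 and 2) stayed hyperglycemic for 22 weeks. The 2 DM+SGLT2i mice (replicates 1 and 2) received dapagliflozin, which blocks the glucose transporter SGLT2 of the proximal tubule, at 25 mg/kg with their drinking water during the last 6 weeks, after 16 weeks of hyperglycemia. The model thus represents insulin deficiency. The tissue is labelled renal tissue, with no statement of cortex or medulla, and every value is an average over all cell types of the piece that was extracted.

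The DCT is the short segment that follows the thick ascending limb. Its apical membrane carries NCC, the cotransporter encoded by Slc12a3, which takes up sodium with chloride and is the target of thiazide diuretics. WNK kinases phosphorylate and activate SPAK (Stk39) and OSR1, which in turn phosphorylate NCC. KLHL3 is the adaptor that brings WNK kinases to the CUL3 ubiquitin ligase, which marks them for degradation, and mutations in the WNK, KLHL3 and CUL3 genes cause familial hyperkalemic hypertension. Low potassium is sensed through the basolateral channel encoded by Kcnj10. Much of this control acts on phosphorylation and on protein stability, which RNA counts do not measure.

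For 5 members, the 250 bases before the annotated start of transcription are shown, 5′ to 3′ on the strand of the gene, from RefSeq on GRCm38.p6. They are the 3 genes that differed most between the 2 DM-22 mice, Slc12a3, Pvalb and Trpm6, and the 2 members that differed the other way in that pair, Stk39 and Wnk4 (values below). Capitals mark the only match found in these 5 stretches, a TATA box (TATAAA) in Slc12a3.
Slc12a3, chr8:94328958-94329207, plus strand: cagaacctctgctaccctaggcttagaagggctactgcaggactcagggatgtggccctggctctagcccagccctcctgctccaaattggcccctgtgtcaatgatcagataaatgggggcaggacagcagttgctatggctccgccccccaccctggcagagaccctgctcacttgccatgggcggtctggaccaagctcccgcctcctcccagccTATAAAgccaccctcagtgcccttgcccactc
Pvalb, chr15:78206401-78206650, minus strand: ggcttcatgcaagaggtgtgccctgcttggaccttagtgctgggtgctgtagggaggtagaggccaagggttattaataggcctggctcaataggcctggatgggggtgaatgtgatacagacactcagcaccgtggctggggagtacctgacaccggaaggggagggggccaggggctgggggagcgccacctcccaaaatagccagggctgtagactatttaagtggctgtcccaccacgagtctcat
Trpm6, chr19:18749480-18749729, plus strand: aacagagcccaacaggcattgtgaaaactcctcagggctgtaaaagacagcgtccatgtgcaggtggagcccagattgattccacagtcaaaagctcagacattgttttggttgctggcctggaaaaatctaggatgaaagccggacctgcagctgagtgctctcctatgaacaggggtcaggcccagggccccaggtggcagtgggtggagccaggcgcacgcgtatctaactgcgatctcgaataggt
Stk39, chr2:68471982-68472231, minus strand: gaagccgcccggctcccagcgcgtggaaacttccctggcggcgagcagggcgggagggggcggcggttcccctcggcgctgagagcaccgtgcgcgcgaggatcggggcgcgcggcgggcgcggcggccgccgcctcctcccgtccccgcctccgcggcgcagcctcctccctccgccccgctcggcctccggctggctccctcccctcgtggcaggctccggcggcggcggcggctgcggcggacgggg
Wnk4, chr11:101260317-101260566, plus strand: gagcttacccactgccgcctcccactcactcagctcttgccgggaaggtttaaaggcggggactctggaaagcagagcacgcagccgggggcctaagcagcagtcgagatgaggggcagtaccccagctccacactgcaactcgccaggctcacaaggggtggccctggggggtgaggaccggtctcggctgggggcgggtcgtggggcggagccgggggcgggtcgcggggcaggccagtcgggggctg

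Promoter windows of 300 bases (250 before and 50 after the start) were searched on both strands for 4 short motifs. TATAAA was found in the window of Slc12a3, with its first base at -32 from the start, and in no other member, against 13.6% of the 32851 windows in the RefSeq table. The E-box CACGTG, a palindrome, and the HNF1 half-site GTTAAT were found in no member, against 7.15% and 7.10% of all windows. The steroid receptor half-site AGAACA occurred once in the window of Kcnj10, at -191 on the opposite strand, and once at +40 of a further start of Pvalb, against 19.0% of all windows. These are matches of letters and not measured binding sites. GC content differed between the windows. It was 80.0% for Stk39, 72.3% for Cul3 and 70.7% for Wnk4. The further start of Pvalb had 67.7%, Kcnj10 and Wnk1 had 63.7% each and Oxsr1 had 62.3%. It was 60.3% for Slc12a3, 58.3% for the Pvalb start shown above, 53.0% for Trpm6 and 52.3% for Klhl3. The median over all windows was 52.7%.

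Expression is given as normalized CPM, that is reads relative to the size of the library, corrected for composition with a TMM factor. The libraries held between 46456125 and 56541594 reads on listed genes, so that 1 read was worth between 0.0180 and 0.0231 CPM. Each member had between 408 reads (Pvalb) and 65852 reads (Slc12a3) in its lowest and highest library. Groups were compared with limma on log2(CPM + 0.5) over the 13976 genes that reached 1 CPM in 2 or more libraries, and adjusted p-values are Benjamini-Hochberg values over all of these. Fold changes on this scale slightly understate the change of genes with few reads.

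Control replicate 2 stood apart from the other controls. Over all tested genes its median absolute log2 difference was 0.408 from replicate 8 and 0.391 from replicate 9, whereas replicates 8 and 9 differed by 0.110. The summed level of 3 tubular injury markers (Havcr1, Lcn2 and Krt20) was 108 CPM in control replicate 2 and 2.97 CPM in both other controls, and the sum of 6 proximal tubule markers was 5472 CPM against 15279 and 13181 CPM. Comparisons with controls are therefore given with and without it. The markers of the DCT were present: the transcription factor genes Emx1 and Sall3, Tmem52b and Kcnj16, whose product pairs with that of Kcnj10, had at least 3.02 CPM in every library.

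The abundance of the members covered a wide range. Genes were set beside each other per kilobase of exon, counting all annotated exons of a gene together. The order therefore depends on the annotated length, for example 22825 bases for Wnk1 and 11119 bases for Slc12a3. On this scale the mean over 7 libraries was 84.7 CPM per kb for Slc12a3 and 58.5 for Wnk4. Cul3 (29.4), Wnk1 (22.7), Kcnj10 (19.3) and Pvalb (19.0) followed, and Stk39 (10.6), Klhl3 (4.24) and Trpm6 (2.57) were lowest. The ranges over libraries of neighbours in this order overlapped, for example 30.6 to 137 for Slc12a3 and 44.4 to 77.5 for Wnk4, except between Wnk4 and Cul3 (24.7 to 32.6) and between Stk39 (6.57 to 15.5) and Klhl3 (2.24 to 5.77). Cul3 varied least, with a highest library 1.32 times its lowest, and Pvalb varied most, at 6.41 times. Slc12a3 (4.48 times) and Trpm6 (4.05 times) came next.

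**Figure D1:**
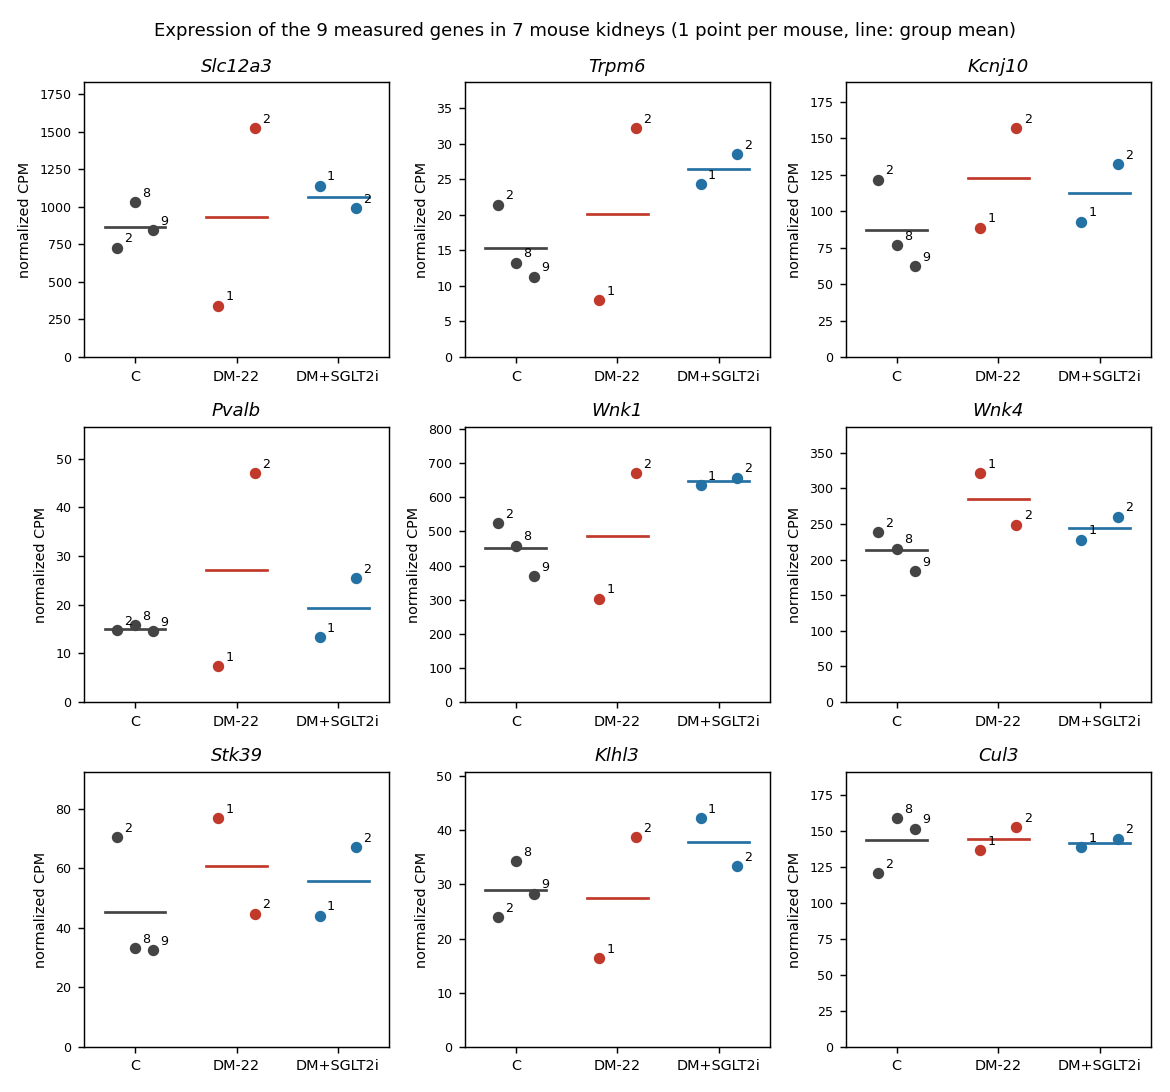
Normalized CPM (linear axes from 0) of each of the 9 genes in the 7 libraries, by group, with 1 point per mouse labelled by its replicate number and a line at the group mean. In Slc12a3, Trpm6, Pvalb and Wnk1 the 2 DM-22 mice hold both the lowest and the highest value of all 7 libraries, for Slc12a3 340 and 1523 CPM.

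The cotransporter itself did not separate the groups. Slc12a3 (ENSMUSG00000031766; GRCm38 chromosome 8, 94329201 to 94366214, plus strand) had 727, 1028 and 845 CPM in control replicates 2, 8 and 9, 340 and 1523 CPM in DM-22 replicates 1 and 2, and 1139 and 988 CPM in DM+SGLT2i replicates 1 and 2. The lowest and the highest of the 7 values both came from DM-22 mice, and the controls and DM+SGLT2i mice lay between them. The group means were 867 ± 152 CPM (SD, n = 3) in C, 932 ± 836 CPM (SD, n = 2) in DM-22 and, with SGLT2i, 1064 ± 106 CPM (SD, n = 2), an order in which no neighbours differed by more than their spread. The log2 fold change was -0.25 (95% interval -1.66 to 1.15, adjusted p = 0.924) in DM-22 mice and 0.31 (-1.10 to 1.71, adjusted p = 1.0) in DM+SGLT2i mice against controls. It was 0.56 (-0.98 to 2.10, adjusted p = 0.886) between the diabetic groups. Without control replicate 2 the values against controls were -0.37 in DM-22 and 0.19 in DM+SGLT2i mice.

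Trpm6, which encodes the apical magnesium channel of the DCT (ENSMUSG00000024727; chromosome 19, 18749983 to 18892511, plus strand), had the same extremes. It had 21.4, 13.3 and 11.3 CPM in the controls, 7.96 and 32.2 CPM in the DM-22 mice and 24.3 and 28.5 CPM in the DM+SGLT2i mice. Both DM+SGLT2i mice were above all 3 controls. The log2 fold change in treated diabetic mice against controls was 0.81 (SE 0.56, 95% interval -0.53 to 2.15, adjusted p = 1.0), and that in DM-22 mice was 0.12 (SE 0.56, -1.22 to 1.46, adjusted p = 0.971). Without control replicate 2 the value in DM+SGLT2i mice was 1.07 (SE 0.59, adjusted p = 0.390).

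Pvalb, encoding the calcium-binding protein parvalbumin of the early DCT (ENSMUSG00000005716; chromosome 15, 78191114 to 78206400, minus strand), had nearly the same level in the controls, at 14.7, 15.8 and 14.5 CPM. It had 7.34 and 47.1 CPM in the DM-22 mice and 13.3 and 25.4 CPM in the DM+SGLT2i mice. The control mean was 15.0 ± 0.70 CPM (SD, n = 3) and the DM-22 mean 27.2 ± 28.1 CPM (SD, n = 2). Parvalbumin is also a skeletal muscle protein. The summed level of 6 muscle markers was 1.98, 1.07 and 0.876 CPM in the controls, 1.13 and 1.11 CPM in the DM-22 mice and 4.83 and 1.37 CPM in the DM+SGLT2i mice, and its part in the Pvalb values was not tested. The log2 fold changes against controls were 0.32 (95% interval -1.37 to 2.00) in DM-22 and 0.29 (-1.40 to 1.97) in DM+SGLT2i mice.

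Kcnj10, the basolateral potassium channel subunit (ENSMUSG00000044708; chromosome 1, 172341210 to 172374085, plus strand), had 122, 76.5 and 62.3 CPM in the controls, 88.8 and 157 CPM in the DM-22 mice and 92.8 and 132 CPM in the DM+SGLT2i mice. All 4 diabetic mice were above control replicates 8 and 9, and control replicate 2 lay within the diabetic range. The log2 fold change in DM-22 mice was 0.50 (SE 0.36, adjusted p = 0.804) with all 3 controls and 0.77 (SE 0.31, adjusted p = 0.198) without control replicate 2.

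Among the kinases, Wnk1 (ENSMUSG00000045962; chromosome 6, 119923969 to 120038672, minus strand) had 524, 458 and 368 CPM in the controls, 302 and 671 CPM in the DM-22 mice and 636 and 658 CPM in the DM+SGLT2i mice. It was above all 3 controls in both DM+SGLT2i mice, which agreed closely with each other (647 ± 15.5 CPM, SD, n = 2). The log2 fold change there was 0.54 (SE 0.35, 95% interval -0.30 to 1.38, adjusted p = 1.0). The DCT uses a short WNK1 transcript that lacks most of the kinase domain, and values per gene do not separate it from the full-length transcript.

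Wnk4, the main WNK kinase of the DCT (ENSMUSG00000035112; chromosome 11, 101260567 to 101277409, plus strand), had 239, 216 and 184 CPM in the controls, 322 and 249 CPM in the DM-22 mice and 228 and 260 CPM in the DM+SGLT2i mice. Both DM-22 mice were above all 3 controls, by a small margin in replicate 2. The group means were 213 ± 27.5 CPM (SD, n = 3), 285 ± 51.3 CPM (SD, n = 2) and 244 ± 22.6 CPM (SD, n = 2). The log2 fold change in DM-22 mice, 0.42 (SE 0.19, 95% interval -0.03 to 0.87), had an unadjusted p of 0.0636 and an adjusted p of 0.804 in limma. Without control replicate 2 it was 0.51 (SE 0.18, adjusted p = 0.166).

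Stk39, which encodes SPAK (ENSMUSG00000027030; chromosome 2, 68210445 to 68472268, minus strand), had 70.5, 33.1 and 32.6 CPM in the controls, 77.0 and 44.7 CPM in the DM-22 mice and 44.1 and 67.1 CPM in the DM+SGLT2i mice. Control replicate 2 had more than 2 times the level of the other controls, which had a mean of 32.9 ± 0.405 CPM (SD, n = 2), and all 4 diabetic mice were above those. The log2 fold change in DM-22 mice was 0.46 (SE 0.42, adjusted p = 0.815) with all 3 controls and 0.83 (SE 0.30, adjusted p = 0.171) without control replicate 2. In DM+SGLT2i mice it was 0.36 (SE 0.42, adjusted p = 1.0) and 0.72 (SE 0.30, adjusted p = 0.291), so that the size of the Stk39 difference rested on which controls were used.

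The ubiquitin ligase genes differed from each other in how much they varied. Klhl3 (ENSMUSG00000014164; chromosome 13, 58000228 to 58113592, minus strand) had 24.0, 34.3 and 28.3 CPM in the controls, 16.4 and 38.7 CPM in the DM-22 mice and 42.3 and 33.4 CPM in the DM+SGLT2i mice, and the groups overlapped. Cul3 (ENSMUSG00000004364; chromosome 1, 80264923 to 80340480, minus strand) had 121, 159 and 152 CPM in the controls, 136 and 153 CPM in the DM-22 mice and 139 and 145 CPM in the DM+SGLT2i mice. Cul3, a scaffold that serves many adaptors in all cells, had the narrowest intervals of the 9 genes, -0.37 to 0.41 on the log2 scale in DM-22 mice and -0.40 to 0.38 in DM+SGLT2i mice against controls, whereas those of Klhl3 were -1.04 to 0.69 and -0.47 to 1.25.

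**Figure D2:**
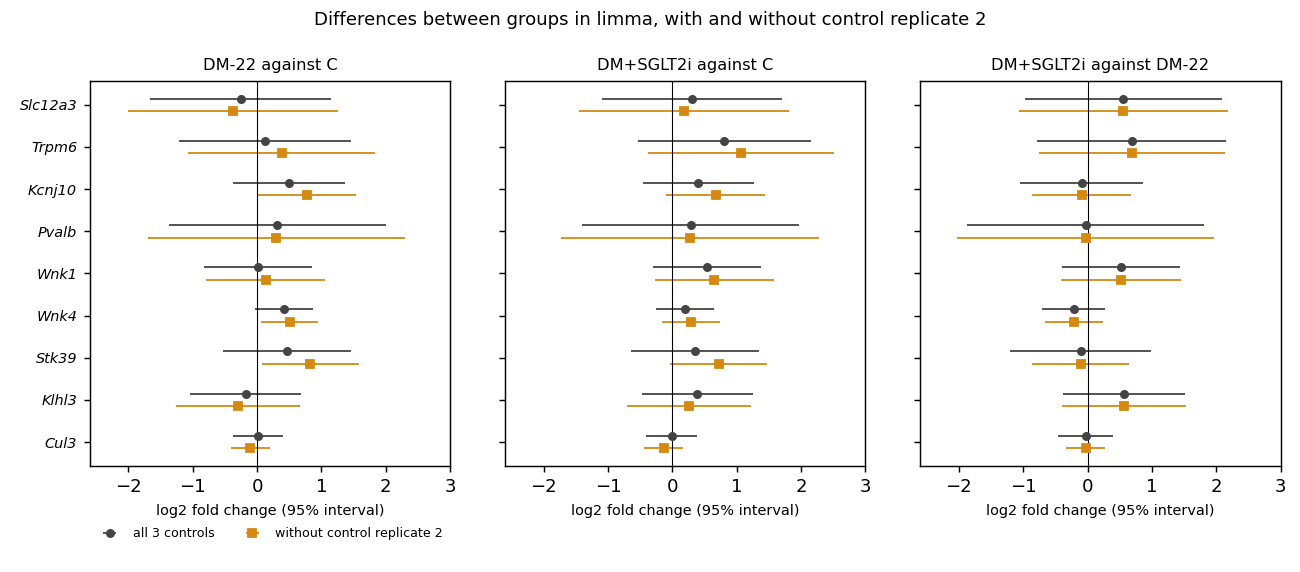
Log2 fold change (x axis, log2(CPM + 0.5) scale) of each gene in the 3 comparisons with its 95% interval from limma, for all 3 controls (circles) and without control replicate 2 (squares). With all 3 controls every interval includes 0; without control replicate 2, those of Kcnj10, Wnk4 and Stk39 in DM-22 mice lie just above 0.

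None of the 9 genes passed an adjusted p of 0.05 in any comparison, and this was also true of the table as a whole: the share of all tested genes called was 0% for DM-22 against C, 0% for DM+SGLT2i against C and 0% for DM+SGLT2i against DM-22. At an unadjusted p under 0.05 in limma, again 0 of the 9 members were found, against 4.47%, 1.08% and 3.91% of all tested genes in the same order, and limma with voom weights gave 0 members as well. Without control replicate 2, adjusted calls made up 0.0143% of genes in DM-22 and 0.122% in DM+SGLT2i mice, with 0 members among them. At an unadjusted p under 0.05, 3 of 9 members (Kcnj10, Wnk4 and Stk39, all higher) then differed in DM-22 mice, against a background of 25.2%, and 0 of 9 in DM+SGLT2i mice, against 17.9%. Both comparisons use the same controls.

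Non-overlapping groups were counted beside the share of all genes that behaved in the same way. In DM-22 mice 1 member (Wnk4) was above all 3 controls, against 10.8% of all genes, and 0 were below, against 9.29%. In DM+SGLT2i mice 2 members (Trpm6 and Wnk1) were above all controls, against 5.67%, and 0 were below, against 6.59%. Between the diabetic groups 0 members lay apart in either direction, where 21.4% of all genes were higher and 20.0% lower in both DM+SGLT2i mice. Without control replicate 2, 3 members (Kcnj10, Wnk4 and Stk39) were higher in DM-22 mice (background 29.9%) and 0 were lower (background 29.5%). In DM+SGLT2i mice 5 were higher (background 28.2%), the same 3 with Trpm6 and Wnk1, and 1, Cul3, was lower (background 33.5%). Trpm6 and Wnk1 were thus the members above all controls in both treated mice, and in both genes 1 DM-22 mouse had a higher value still.

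Within groups, Pvalb, Slc12a3, Trpm6, Klhl3 and Wnk1 differed most between the 2 untreated diabetic mice. Stk39 (2.16 times), Kcnj10 (1.95 times), Cul3 (1.32 times) and Wnk4 (1.30 times) differed more between control replicate 2 and another control. DM-22 replicate 2 had 6.41 times the Pvalb, 4.48 times the Slc12a3 and 4.05 times the Trpm6 of replicate 1, and 2.36 times the Klhl3, 2.22 times the Wnk1 and 1.77 times the Kcnj10. Among all tested genes, 0.959% differed between these mice by at least as much as Pvalb, 1.77% by as much as Slc12a3 and 2.34% by as much as Trpm6. Stk39 and Wnk4 went the other way and were 1.72 and 1.29 times as high in replicate 1, and Cul3 differed by 1.12 times. The same share was 7.12% for Klhl3, 7.96% for Wnk1, 14.2% for Kcnj10, 15.3% for Stk39, 38.0% for Wnk4 and 66.4% for Cul3. The median log2 difference of the 9 members, replicate 2 minus replicate 1, was 1.15, beside 0.02 over all genes tested.

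The direction of the comparison with controls in 6 of these genes therefore depended on the mouse. With replicate 1 as the only DM-22 mouse the log2 fold change against controls was -1.33 for Slc12a3, -0.98 for Pvalb, -0.85 for Trpm6, -0.78 for Klhl3 and -0.56 for Wnk1. With replicate 2 alone it was 0.83 for Slc12a3, 1.62 for Pvalb, 1.10 for Trpm6, 0.43 for Klhl3 and 0.59 for Wnk1, and Cul3 moved from -0.06 to 0.10. Wnk4 (0.60 and 0.23), Stk39 (0.85 and 0.08) and Kcnj10 (0.09 and 0.91) kept a positive sign with either mouse. In these fits the single mouse was assumed to vary like the mice of the other groups. With 1 mouse on each side the difference between the DM-22 mice has no replicate check.

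The 2 DM+SGLT2i mice were closer to each other. Pvalb differed most, at 1.90 times in replicate 2, followed by Stk39 (1.52 times) and Kcnj10 (1.42 times), while Slc12a3 was 1.15 times higher in replicate 1. Trpm6 differed by 1.17 times and Wnk1 by 1.03 times. The median log2 difference of the members was 0.19, against 0.03 over all genes tested. The SD of Slc12a3 was 106 CPM in these mice and 836 CPM in the DM-22 mice.

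**Figure D3:**
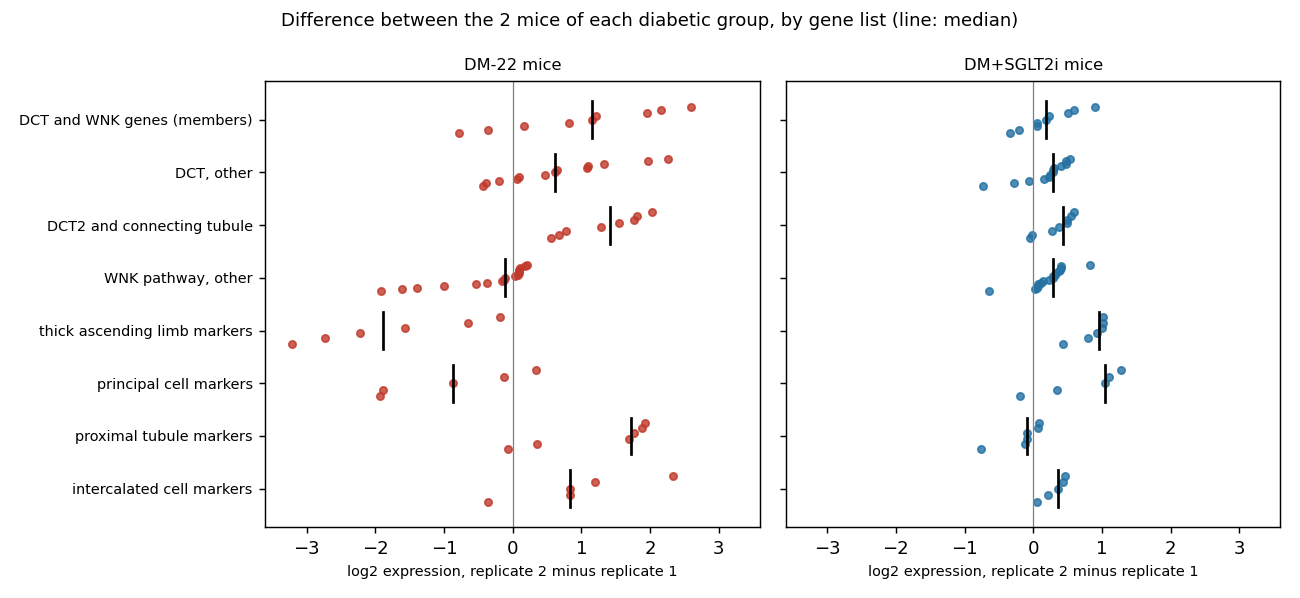
Log2 expression of replicate 2 minus replicate 1 (x axis) in the DM-22 pair (left) and the DM+SGLT2i pair (right), 1 point per gene, grouped by gene list, with the list's median as a line. In the DM-22 pair the medians are 1.15 for the members, 1.42 for late DCT and connecting tubule genes, 1.72 for proximal tubule markers and -1.89 for thick ascending limb markers.

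Other genes of the segment moved with Slc12a3 between the DM-22 mice. Of 13 further DCT genes, 10 were higher and 3 lower in replicate 2, with a median log2 difference of 0.62. Sall3, a transcription factor, had 3.02 and 16.3 CPM in replicates 1 and 2, Tmem52b 131 and 515 CPM and Emx1 26.8 and 68.3 CPM. All 8 genes of the late DCT and connecting tubule were higher in replicate 2 (median 1.42), among them the sodium-calcium exchanger Slc8a1 (25.1 and 104 CPM), the calcium channel Trpv5 (15.6 and 46.3 CPM) and the calcium-binding protein gene Calb1 (301 and 736 CPM).

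Markers of other cell types also differed between these mice. The 6 markers of the thick ascending limb, which precedes the DCT, were all lower in replicate 2, and their sum was 13464 CPM in replicate 1 and 3384 CPM in replicate 2, beside 3640 to 6490 CPM in controls and 4852 to 7372 CPM in DM+SGLT2i mice. Of the 6 proximal tubule markers 5 were higher in replicate 2, and their sum was 5721 and 14728 CPM, beside 5472 to 15279 CPM in controls and 9424 to 9951 CPM in DM+SGLT2i mice. The 5 principal cell markers summed to 915 and 369 CPM in the DM-22 mice (344 to 629 CPM in controls, 365 to 707 CPM in DM+SGLT2i mice) and 5 intercalated cell markers to 222 and 381 CPM (208 to 337 and 222 to 270 CPM). Aqp2 made up 640 and 167 CPM of the principal cell sums. Of the principal cell markers 4 were lower and 1 higher in replicate 2, and of the intercalated cell markers 4 were higher and 1 lower. The part of these segment markers in the values of the members was not tested, and in whole tissue fewer cells of a type and less RNA per cell cannot be told apart.

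**Figure D4:**
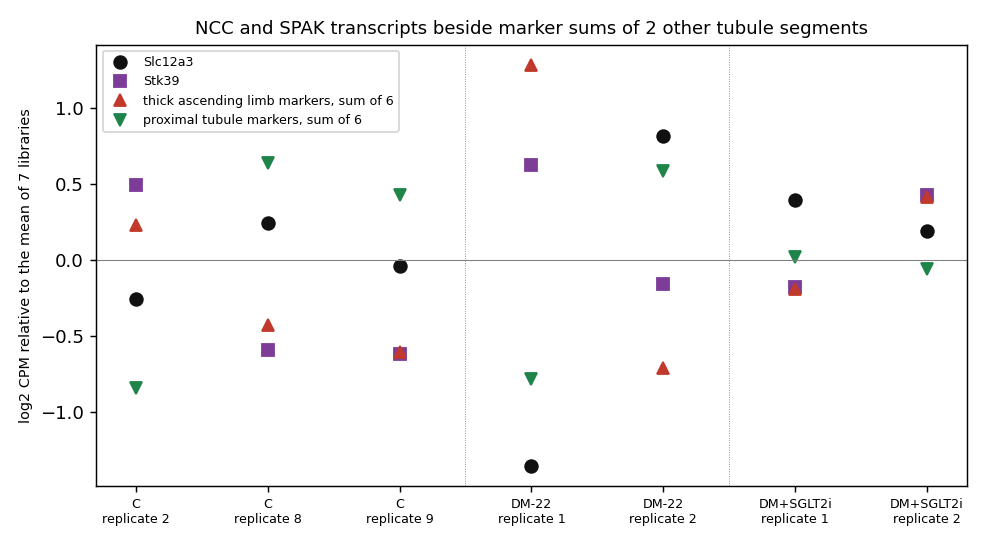
Log2 CPM relative to the mean of 7 libraries (y axis) of Slc12a3, Stk39, the sum of 6 thick ascending limb markers and the sum of 6 proximal tubule markers in each library (x axis). In DM-22 replicate 1 the limb sum and Stk39 are at their highest and Slc12a3 at its lowest, with limb markers at 13464 CPM and Slc12a3 at 340 CPM.

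The cotransporters of the adjoining segments went opposite ways in the DM-22 mice. Slc12a1 encodes NKCC2, the target of loop diuretics in the thick ascending limb, and had 2335, 922 and 876 CPM in the controls, 5580 and 602 CPM in the DM-22 mice and 1465 and 2549 CPM in the DM+SGLT2i mice. The ratio of Slc12a3 to Slc12a1 was 0.311, 1.12 and 0.965 in the controls, 0.0610 and 2.53 in the DM-22 mice and 0.777 and 0.388 in the DM+SGLT2i mice, a range of 41.5 times. The ratio of Slc12a3 to the DCT transcription factor gene Emx1, in contrast, stayed between 12.7 and 22.3, a range of 1.76 times. Wnk1 to Wnk4 lay between 2.00 and 2.20 in the controls and between 2.53 and 2.79 in the DM+SGLT2i mice, but was 0.940 and 2.70 in the DM-22 mice. These ratios were chosen after the values were seen and carry no test.

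Stk39 followed the thick ascending limb sum in some libraries. Its 3 highest values (DM-22 replicate 1, control replicate 2 and DM+SGLT2i replicate 2) were in the 3 libraries with limb sums of 13464, 6490 and 7372 CPM, and in the other 4 libraries, with sums of 3384 to 4852 CPM, it was between 32.6 and 44.7 CPM. SPAK is known to act on NKCC2 in that segment as well as on NCC in the DCT. Wnk4 was highest in the library with the highest limb sum but lay between 184 and 260 CPM in the other 6. The part of the limb RNA in either gene was not tested.

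The genes whose pattern over the 7 libraries was most like that of Slc12a3 were Emx1 (Pearson's r = 0.991), Nphs1 (0.988), which encodes nephrin of podocytes, and Tgm2 (0.986), on the log2(CPM + 0.5) scale. Nphs1 had 22.04, 35.2 and 28.4 CPM in the controls, 12.0 and 42.2 CPM in the DM-22 mice and 35.7 and 28.9 CPM in the DM+SGLT2i mice, so that the likeness was not confined to tubule genes. For Pvalb they were Dera (0.997), Atg4a-ps (0.986) and Pctp (0.979). These are descriptions over 7 points that share the library and its scaling, and they rest largely on the 2 DM-22 mice.

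The rest of the WNK pathway showed no member past the adjusted threshold. Over 17 further genes the median log2 fold change was 0.14 in DM-22 mice (15 positive and 2 negative) and 0.00 in DM+SGLT2i mice (8 and 9) against controls, beside 0.00 and -0.01 over all genes tested, and -0.15 between the diabetic groups. With all 3 controls 0 of the 17 were under an unadjusted p of 0.05. Without control replicate 2, 2 of 17 were in DM-22 mice, a smaller share than the 25.2% of all genes: Ppp1ca (log2 fold change 0.49, adjusted p = 0.140), a catalytic subunit of protein phosphatase 1, and Ube2m (0.46, adjusted p = 0.145), the conjugating enzyme that supplies NEDD8 to cullins.

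Some regulators of NCC varied widely within groups. Sgk1, the aldosterone-induced kinase, had 124, 56.4 and 101 CPM in the controls, 206 and 66.9 CPM in the DM-22 mice and 103 and 136 CPM in the DM+SGLT2i mice. Ppp1r1a, an inhibitor of protein phosphatase 1, had 210, 134 and 141 CPM in the controls, 473 and 125 CPM in the DM-22 mice and 124 and 222 CPM in the DM+SGLT2i mice. Both were highest in DM-22 replicate 1, where Slc12a3 was lowest. That library also had the highest sums of thick ascending limb markers (13464 CPM) and of principal cell markers (915 CPM). The part of these segments in the Sgk1 and Ppp1r1a values was not tested. Sgk1, Ppp1r1a, Wnk3 and Sorl1 were the 4 of the 17 genes that were lower by more than 2 times in replicate 2. The ligase components Rbx1, Nedd8, Cand1 and Cops5 had log2 differences between 0.09 and 0.21 in the DM-22 pair and between 0.06 and 0.40 in the DM+SGLT2i pair, where the median absolute difference of all genes was 0.265 and 0.200.

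Against controls, 0 of the 13 further DCT genes and 0 of the 8 late DCT and connecting tubule genes passed the adjusted threshold with limma. The DCT genes had median log2 fold changes of 0.22 in DM-22 and 0.32 in DM+SGLT2i mice, and the late DCT and connecting tubule genes of 0.15 and 0.42. Calb1 had 1146, 317 and 240 CPM in the controls and 788 and 957 CPM in the DM+SGLT2i mice, and its log2 fold change there was 0.97 (adjusted p = 1.0) with all 3 controls and 1.65 (adjusted p = 0.161) without control replicate 2. Trpv5 changed in the same way with the choice of controls, from 0.86 (adjusted p = 1.0) to 1.43 (adjusted p = 0.225). Klk1 (0.26) and Atp2b1 (-0.10) of the same list changed little in DM+SGLT2i mice without control replicate 2. In that fit, 4 of the 8 genes were higher at an unadjusted p under 0.05 in limma, against 17.9% of all genes. In DM-22 mice 0 of the 8 were, against 25.2%. Control replicate 2 had the highest Calb1 and Trpv5 of all 7 libraries, while its Slc12a3 was the lowest of the controls.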

How the data were processed

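The study sequenced polyA RNA of 7 mouse kidneys with a directional library kit. The authors deposited log2 values, TMM-normalized CPM with a constant averaging 2 reads added. Per the labels, bcl2fastq, FastQC, Trim Galore, STAR, edgeR and mm10 were used, with versions not given in the sources used here. The design had assumed CPM. The logarithm was undone and the linear value of the shared floor (-4.66) subtracted, which gave CPM, and whole reads for 100% of low values (tolerance 0.1 read, up to 2000 reads). All columns were used, and 0 were left out. Groups and replicate numbers came from the labels, which do not name litters or batches, so that p-values measure the spread between these mice.

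Genes were tested two-sided in R 4.3.3 with limma 3.58.1, using lmFit and a trended eBayes, with the 3 groups in 1 fit and a threshold of 0.05. The limma step was also run on simulated data with independent noise and no outlying control. That run therefore does not show how the fit behaves in these libraries. Other steps used Python 3.11.15, numpy 2.4.6 and pandas 2.3.3. The members and 13 gene lists (93 genes, 90 listed; Kcna1, Myh4 and Per3 were not analysed here) were chosen with earlier results of these data known, so that no list is independent evidence. Named were all members, genes of the 4 lists nearest to them (WNK pathway, SLC12 cotransporters, DCT, late DCT and connecting tubule), the 3 genes most like Slc12a3 and Pvalb by Pearson's r, and genes on which a result turns. Gene positions and exon lengths are from GENCODE M21 on GRCm38, which held all 17537 identifiers. Alternatives were the pseudocount (0.1 and 2 CPM), no filter, scaling by the listed total, voom weights, a fit of only the groups compared, each library left out and a replicate block.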

Additional observations from a re-analysis of the deposited data

How the results depend on the processing

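Under 14 other settings, 0 of the 9 genes passed the adjusted threshold, and the smallest adjusted p-values in limma, all without control replicate 2, were 0.166 (Wnk4, DM-22 against C), 0.291 (Stk39, DM+SGLT2i against C) and 0.558 (Klhl3, DM+SGLT2i against DM-22). Of 360 log2 fold changes, 32 reversed, and the cause was not tested. In a fit of only the 2 groups compared, Trpm6 (unadjusted p = 0.0345) and Wnk1 (unadjusted p = 0.0445) were under 0.05 in DM+SGLT2i against C in limma, with adjusted p = 1.0. Scaling by the listed total moved the median of all genes to -0.08 (DM-22 against C) and 0.11 (DM+SGLT2i against DM-22) and gave -0.0729 for Wnk1 and -0.0729 for Cul3 in DM-22 against C, 0.0070 for Cul3 in DM+SGLT2i against C, and 0.0146 for Kcnj10, 0.0775 for Pvalb and 0.0799 for Cul3 in DM+SGLT2i against DM-22, where voom gave 0.0817 for Pvalb. With each library left out, the log2 fold change in DM-22 against C lay between -1.33 and 0.83 for Slc12a3, -0.85 and 1.10 for Trpm6, -0.98 and 1.62 for Pvalb, -0.56 and 0.59 for Wnk1, -0.78 and 0.43 for Klhl3, and -0.10 and 0.10 for Cul3. In DM+SGLT2i against C it lay between -0.16 and 0.74 for Pvalb and -0.13 and 0.0663 for Cul3. In DM+SGLT2i against DM-22 it lay between -0.52 and 1.64 for Slc12a3, -0.29 and 1.67 for Trpm6, -0.50 and 0.32 for Kcnj10, -1.33 and 1.27 for Pvalb, -0.0531 and 1.10 for Wnk1, -0.50 and 0.28 for Stk39, -0.0423 and 1.17 for Klhl3, and -0.11 and 0.0535 for Cul3. With a replicate block, 0 members and 0 of all genes were called in DM+SGLT2i against DM-22, with 696 genes at an unadjusted p under 0.05 instead of 547. The deviations of same-numbered diabetic mice from their group means had a correlation of -0.0412 across genes. The labels do not say what a shared number means. With 2 mice in each diabetic group this correlation cannot settle whether the numbers mark a pairing. With 2 mice in each diabetic group the intervals of Slc12a3, Trpm6 and Pvalb span more than a 2-fold change in both directions in DM-22 against C, so smaller differences were not detectable.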

Other observations

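Some genes of the circadian clock, which is known to control renal sodium transport, also differed between the 2 DM-22 mice. The activator gene Arntl had 1.21, 1.77 and 1.62 CPM in the controls, 6.48 and 19.4 CPM in the DM-22 mice and 5.07 and 8.69 CPM in the DM+SGLT2i mice, and Dbp, which peaks opposite to it, had 168, 225 and 220, then 83.3 and 37.6, then 106 and 66.6 CPM. In the DM-22 pair, 4 of 4 genes that peak with Arntl were higher in replicate 2. Of 8 that peak opposite, 7 were lower there and 1, Hlf, was higher. Clock (log2 difference 0.23) and Per2 (-0.12) stayed under the median absolute difference of all genes, 0.265. Of 4 genes that peak with Arntl, 4 were above 0 in log2 fold change against controls in DM-22 mice (median 1.37) and in DM+SGLT2i mice (median 1.05), and of 8 that peak opposite, 8 and 7 were below 0 (medians -0.79 and -0.62). None passed the adjusted threshold with all 3 controls in limma, while an unadjusted p under 0.05 was found for 3 and 4 genes of the lists in DM-22 mice, as for 2 and 2 in mice given SGLT2i, against 4.47% and 1.08% of all genes tested. The time of day of tissue collection was not analysed here, and the part of the clock in the values of the members was not tested.

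The 6 genes of steroid hormone response (receptors, Hsd11b2, Sgk1, Tsc22d3 and Fkbp5) summed to 495 to 694 CPM in controls, 686 to 707 CPM in DM-22 and 529 to 640 CPM in DM+SGLT2i mice, with 0 adjusted calls. The 5 other SLC12 cotransporters had median log2 fold changes of -0.08 in DM-22 and 0.10 in DM+SGLT2i mice against controls, also with 0 adjusted calls. The 3 injury markers summed to 57.2 and 4.72 CPM in the DM-22 mice, of which Lcn2 made up 52.7 and 2.13 CPM, to 38.5 and 37.6 CPM in the DM+SGLT2i mice, and to 108 CPM in control replicate 2.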
